A study of Homo sapiens with 4 samples.

Results

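The genes described here are 10 secreted signals of inflammation: the chemokines CCL5, CXCL10, CCL2, CXCL1, CXCL2, CXCL3 and CXCL8, and the interleukins IL1A, IL1B and IL6. They were found as every probe set whose single gene symbol in the platform annotation was one of these names or an alias of it, such as IL8 for CXCL8. This gave 17 probe sets for the 10 genes, among 41032 named probe sets for 19740 genes in all. CCL5 and CXCL2 had 3 probe sets each, CXCL8, IL1A and IL1B had 2, and the other 5 genes had 1.

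CL1-0 and CL1-5 are established human lung adenocarcinoma lines, CL1-5 being a more invasive descendant of CL1-0, and the labels give both as type II alveolar cells. Total RNA was hybridised to 4 one-colour Affymetrix arrays, 1 for each of 4 groups: CL1-0 with a control vector, CL1-0 with a vector expressing PSAT1, CL1-5 with a non-silencing hairpin, and CL1-5 with a hairpin against PSAT1. PSAT1 is phosphoserine aminotransferase, an enzyme of serine synthesis, and the comparisons ask what more or less of it did to gene expression in each line. All 4 cultures were stably transduced and held in puromycin for 2 weeks. Each group is a single array, so there was no replicate and no test. A difference between arrays holds culture, selection and labelling together with the construct, which cannot be told apart.

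Chemokines are small secreted proteins that draw leukocytes along a gradient by binding G protein-coupled receptors. CXCL1, CXCL2, CXCL3 and CXCL8 bind CXCR2 and recruit neutrophils, CCL2 binds CCR2 on monocytes, CCL5 attracts T cells and monocytes, and CXCL10 binds CXCR3 on activated T cells. IL-1 alpha and IL-1 beta share the receptor IL1R1 and signal through MYD88 to the transcription factor NF-kB, whose targets include the neutrophil chemokines and IL6, while IL-6 acts through IL6R and gp130 (IL6ST) on STAT3. CCL5 and CXCL10 are also induced through interferon signalling, and epithelial tumour cells can secrete all of these proteins themselves.

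Values are deposited probe set signals, a linear intensity. Signals under 49.0, the median over all 4 arrays, were set to that floor, and a pair of arrays measured a gene if at least 1 of them exceeded it. Where the dimmer array lay at or under the floor the fold is a lower bound, written "at least", which moves with the floor chosen. "Higher", "rose", "lower" and "fell" mean 2-fold or more, a rule of size alone. Signals are compared for 1 probe set across arrays and never between probe sets.

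The PSAT1 probe set of highest signal read 4214 and 5494 in CL1-0 with the control vector and with PSAT1, a ratio of 1.30-fold, and 1760 and 143 in CL1-5 with the non-silencing and the PSAT1 hairpin, a fall of 12.3-fold. The other PSAT1 probe set gave 1.07-fold and a fall of 3.58-fold. The targeted transcript therefore passed 2-fold in CL1-5 alone, and whether these probes read the transcript of the expression vector was not tested. The share of probe sets above the floor was 51.7% to 52.0% in CL1-0 and 48.0% to 48.3% in CL1-5. Of 14 named leukocyte markers 4 passed the floor on any array, with summed signals of 415 to 452 per array, and 0 changed 2-fold in any comparison. Of 14 fibroblast and endothelial markers 8 passed it, with sums of 652 to 1045, and the collagen gene COL3A1 was the 1 that changed with a manipulation, from 312 to 27.4 with PSAT1 in CL1-0, a log2 ratio of -0.91 when its probe sets were averaged. Of 13 named type II cell markers 10 passed it, with sums of 2693 to 3550 and 0 changes, though the surfactant genes SFTPC (131 to 151) and SFTPB (106 to 191) stayed under the 75th percentile signal of 212.6. Mean signal, with 2% trimmed at each end, was 329 and 328 on the CL1-0 arrays and 212 and 211 on the CL1-5 arrays. The same floor was used for both lines. Whether the lines were summarised together is not stated in any label. Identical values occurred at 1260 probe sets within the CL1-0 pair and 1749 within the CL1-5 pair, and at 0 between lines, which bears on every level set across lines below.

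The 2 lines differed in how many members exceeded the floor. In CL1-0 with the control vector 3 of the 10 genes exceeded the floor (CCL5, CXCL10 and IL1B), in CL1-0 with PSAT1 only IL1B did, and in both CL1-5 cultures 9 did, all but CCL2. CCL2, the monocyte chemokine, read 8.25 and 7.37 in CL1-0 (control vector, then PSAT1) and 12.5 and 14.8 in CL1-5 (non-silencing, then PSAT1 hairpin), so no difference could be measured. Every list of 4 signals below runs in that order. In bulk RNA, fewer cells expressing a gene and less RNA per cell cannot be told apart.

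**Figure D1:**
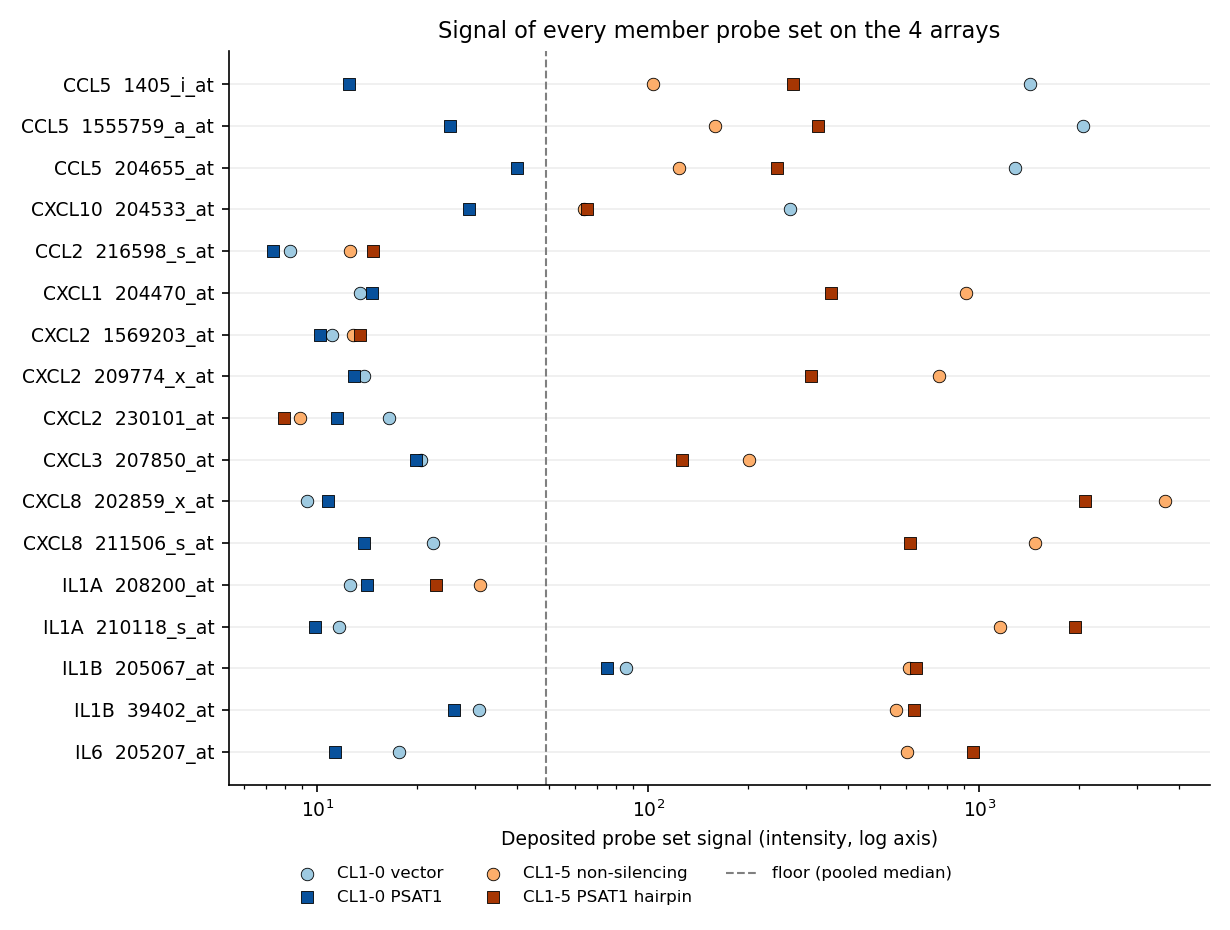
Deposited signal (intensity, log axis) of all 17 probe sets of the 10 genes on the 4 arrays, 1 point per array, with the floor of 49.0 as a dashed line. CCL5 and CXCL10 are brightest in CL1-0 with the control vector, while CXCL1, CXCL2, CXCL3, CXCL8, IL1A and IL6 lie under the floor in both CL1-0 cultures and above it, with 1 probe set each or more, in both CL1-5 cultures.

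CCL5 was lower with the PSAT1 vector in CL1-0 by all 3 of its probe sets. Its probe set of highest signal, 1555759_a_at, read 2055 with the control vector and 25.2 with PSAT1, a fall of at least 41.9-fold. The other CCL5 probe sets fell from 1419 to 12.4 (at least 29.0-fold) and from 1283 to 40.2 (at least 26.2-fold), so all 3 went from well above the floor to below it.

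In CL1-5 the same CCL5 probe set read 159 with the non-silencing hairpin and 326 with the PSAT1 hairpin, 2.04-fold higher. The others read 104 and 273 (2.64-fold) and 124 and 245 (1.98-fold), so 2 of 3 probe sets passed 2-fold and the third was just short of it. Adding an offset of 32 to each signal in place of the floor gave a log2 ratio of 0.90, under 2-fold. CCL5 was thus lower on the array labelled PSAT1 in CL1-0 and higher on the hairpin array in CL1-5, at different sizes whose difference was not tested. Its order over the arrays was CL1-0 vector, CL1-5 hairpin, CL1-5 non-silencing and CL1-0 PSAT1 in all 3 probe sets.

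CXCL10, the CXCR3 ligand, had 1 probe set, with signals of 267, 28.8, 63.8 and 65.2. It fell at least 5.45-fold with PSAT1 in CL1-0, a bound that was 2.64-fold with the floor at the 65th percentile and 9.28-fold at the 25th. In CL1-5 the hairpin array differed from its control by 1.02-fold, and both signals were close to the floor. CXCL10 therefore moved with CCL5 in CL1-0 but gave no 2-fold change in CL1-5.

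IL1B was the other member above the floor in CL1-0, at 85.3 with the control vector and 74.7 with PSAT1, a ratio of 1.14-fold. Its second probe set, 39402_at, read 30.7 and 25.9 there. So in CL1-0 the array labelled PSAT1 had 2 of 3 measured members lower and 0 higher, with a median log2 ratio of -2.45. Over all measured genes 1.01% were 2-fold or more lower and 2.56% higher in this pair, with a median of -0.01. CCL5 and CXCL10 were measured here only through the control vector array, so they could not come out higher. The median over 3 genes rests on which ones pass the floor: it was -0.19 over 5 measured members with a floor at the 25th percentile.

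The window around the CXCL10 start site is printed because its letters include those of both factors named above. The letters GAAANTGAA, here the core of the interferon-stimulated response element (ISRE), lie at -221 to -213 counted from the first transcribed base (+1), and GGNNNTTCC, the core letters of NF-kB sites, at -176 to -168, -122 to -114 and -110 to -102. The sequence is 300 bases from RefSeq GRCh38.p14, chr4:76023448-76023747 on the minus strand, 250 before and 50 after the start, with the matching letters of either strand in capitals.
CXCL10: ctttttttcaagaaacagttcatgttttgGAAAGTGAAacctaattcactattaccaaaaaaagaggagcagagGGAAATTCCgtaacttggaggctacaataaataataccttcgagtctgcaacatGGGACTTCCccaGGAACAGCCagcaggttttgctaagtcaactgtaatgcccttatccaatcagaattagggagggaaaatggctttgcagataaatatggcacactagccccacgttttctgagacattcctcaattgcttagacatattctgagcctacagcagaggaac
The ISRE letters occurred in 1.93% of 27305 promoters of this length and the NF-kB letters in 20.1%, searching both strands. A match is a description of letters, not of a bound site. CCL5 and CCL2 have no entry in the promoter table used.

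Interferon-induced genes are the list that CCL5 and CXCL10 also belong to by background. Of 23 named genes in it, other than the members, 18 were measured in CL1-0, of which 12 were lower and 0 higher with PSAT1 (median log2 ratio -2.70). Among the lower ones IFIT1, IFIT2, IFIT3, RSAD2, IFI44 and IFIH1 were measured only through the control vector array. MX1, OAS1, OAS2 and IFI27 stayed under the floor in both CL1-0 cultures. In CL1-5, 22 were measured, of which 13 were higher and 0 lower with the hairpin (median 1.22). Between the control arrays of the lines 4 of 22 were higher in CL1-5 and 12 lower (median -1.17), against 5.25% and 24.8% of all genes. MX1 was at least 6.63-fold higher there and RSAD2 24.7-fold lower. By the distance between floored log2 signals over the 4 arrays, each gene centred on its mean, the 5 genes nearest to CCL5 among 9134 bright enough to compare were OASL (0.51), RSAD2 (0.93), IFIT2 (1.08), IFI44 (1.22) and HERC5 (1.61), all on that list. That list was chosen with earlier results of these data known. CCL5, RSAD2, IFIT2 and IFI44 were all set to the floor in CL1-0 with PSAT1, which fixes part of their shared pattern. The antiviral synthetase-like gene OASL read 1718, 60.1, 212 and 388. The 5 genes nearest to CXCL10 were SLC1A3 (0.28), EMX2 (0.33), TAC3 (0.52), COL3A1 (0.53) and CDH6 (0.55), none of them on the interferon list. SLC1A3, a glutamate transporter, read 220, 42.0, 45.9 and 53.6, high on 1 array only, as CXCL10 was. IFNB1, interferon beta, exceeded the floor only in CL1-0 with the control vector, at 81.9 against 15.0, 15.0 and 14.6 elsewhere. Its fall with PSAT1 was bounded at 1.67-fold by the floor used and at a log2 ratio of -2.23 with the floor at the 25th percentile.

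**Figure D2:**
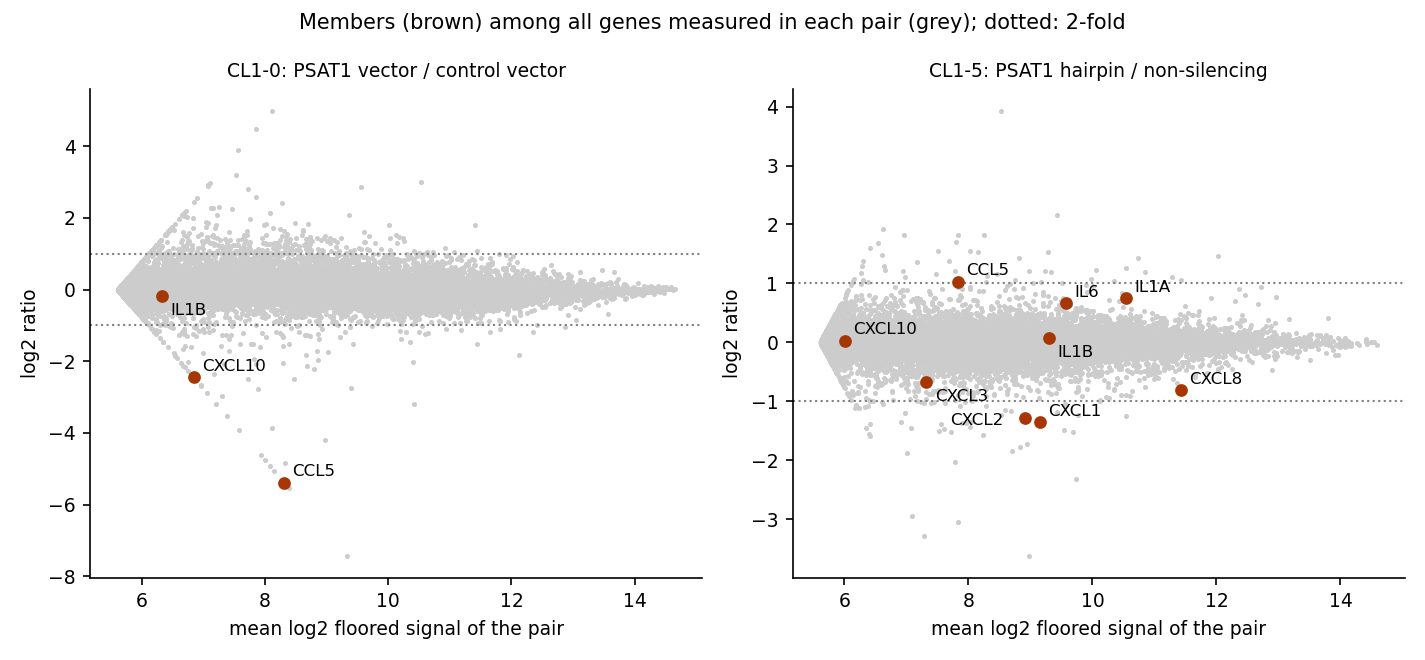
Log2 ratio against mean log2 floored signal for every gene measured in the CL1-0 pair (left, 13187 genes) and the CL1-5 pair (right, 12821 genes), with the 10 genes of interest in brown where measured and 2-fold as dotted lines. In CL1-0 only CCL5, CXCL10 and IL1B are measured, the first at a bound of -5.39. In CL1-5 CCL5 lies above the upper line and CXCL1 and CXCL2 below the lower one.

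The neutrophil chemokines CXCL1, CXCL2, CXCL3 and CXCL8 were read in CL1-5 only. CXCL1 had signals of 13.4, 14.6, 911 and 357, a fall of 2.56-fold with the PSAT1 hairpin. CXCL2 by probe set 209774_x_at read 13.8, 12.9, 755 and 309, a fall of 2.44-fold. Both genes, which lie on chromosome 4, were thus under the floor in CL1-0 and lower with the hairpin in CL1-5.

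The other CXCL2 probe sets, 1569203_at and 230101_at, stayed under the floor on all 4 arrays, at 10.2 to 13.4 and at 7.90 to 16.4. A mean over the 3 probe sets brought the CXCL2 log2 ratio to -0.43, under 2-fold. The suffix of 209774_x_at marks probes that can bind other transcripts, and CXCL1, CXCL2 and CXCL3 are close paralogues, so how much of its signal came from CXCL1 or CXCL3 was not tested.

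CXCL3 had 1 probe set, at 20.5, 19.9, 202 and 127, a ratio of 1.60-fold in the direction of CXCL1 and CXCL2 but under 2-fold. CXCL8, a potent neutrophil attractant, read 9.27, 10.7, 3645 and 2088 on 202859_x_at, 1.75-fold down in value with the hairpin. Its other probe set, 211506_s_at, read 22.4, 13.8, 1470 and 618, a fall of 2.38-fold. The probe sets of CXCL8 agreed in direction and lay on either side of 2-fold, and their mean gave a log2 ratio of -1.03. All 4 neutrophil chemokines therefore had ratios below 1 with the hairpin, and 2 of them passed 2-fold.

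The windows around the start sites of these 4 genes are printed because their values moved in the same direction. All come from RefSeq GRCh38.p14, 300 bases each, with capitals for NF-kB letters (GGNNNTTCC), ISRE letters (GAAANTGAA) and the AP-1 letters TGANTCA on either strand. CXCL1 is chr4:73869143-73869442 on the plus strand, CXCL2 chr4:74099146-74099445 and CXCL3 chr4:74038640-74038939 on the minus strand, and CXCL8 chr4:73740319-73740618 on the plus strand.
CXCL1: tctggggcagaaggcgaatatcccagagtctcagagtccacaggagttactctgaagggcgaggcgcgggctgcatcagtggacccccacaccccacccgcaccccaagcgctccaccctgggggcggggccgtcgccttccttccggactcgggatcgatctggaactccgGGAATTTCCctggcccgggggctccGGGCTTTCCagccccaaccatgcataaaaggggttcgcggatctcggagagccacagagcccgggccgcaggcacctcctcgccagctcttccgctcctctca
CXCL2: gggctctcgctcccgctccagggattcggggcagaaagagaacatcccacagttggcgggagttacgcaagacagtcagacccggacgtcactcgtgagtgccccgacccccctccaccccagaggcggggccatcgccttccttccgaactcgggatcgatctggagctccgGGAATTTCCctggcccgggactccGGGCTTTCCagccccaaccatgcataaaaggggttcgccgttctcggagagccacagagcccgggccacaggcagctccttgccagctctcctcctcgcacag
CXCL3: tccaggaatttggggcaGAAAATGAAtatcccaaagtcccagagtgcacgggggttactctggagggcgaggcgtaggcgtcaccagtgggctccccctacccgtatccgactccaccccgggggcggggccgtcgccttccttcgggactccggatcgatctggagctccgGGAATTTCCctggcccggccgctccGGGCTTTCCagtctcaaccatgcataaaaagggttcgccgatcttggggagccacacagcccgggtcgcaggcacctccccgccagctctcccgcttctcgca
CXCL8: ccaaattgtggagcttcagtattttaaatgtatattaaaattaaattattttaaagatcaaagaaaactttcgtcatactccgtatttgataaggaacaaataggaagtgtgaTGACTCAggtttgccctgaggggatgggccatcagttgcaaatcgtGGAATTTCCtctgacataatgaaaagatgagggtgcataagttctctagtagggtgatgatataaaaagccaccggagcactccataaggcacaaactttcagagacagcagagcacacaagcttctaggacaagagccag
CXCL1 and CXCL3 hold the NF-kB letters at -78 to -70 and at -53 to -45, CXCL2 at -77 to -69 and -53 to -45, and CXCL8 at -91 to -83. CXCL3 also holds the ISRE letters at -233 to -225, and CXCL8 the AP-1 letters at -137 to -131. The windows of CXCL1 and CXCL3 were 82.5% identical, those of CXCL2 and CXCL3 73.8%, and those of CXCL1 and CXCL2 71.9%. The window of CXCL8 was 45.2% to 47.9% identical to these, no more than to the windows of IL6 (50.3%) and CXCL10 (52.6%).

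The interleukins gave values in the other direction with the hairpin, none of them reaching 2-fold. IL1A, a cytokine held in epithelial cells as an alarm signal, read 11.6, 9.80, 1153 and 1941 on 210118_s_at, 1.68-fold up in value on the hairpin array. Its other probe set, 208200_at, stayed under the floor at 12.5 to 31.0. IL6 read 17.7, 11.3, 604 and 956, 1.58-fold up in value.

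IL1B, made as a precursor that caspase-1 cleaves, read 85.3, 74.7, 612 and 643 on 205067_at and 30.7, 25.9, 560 and 635 on 39402_at. Its hairpin ratios were 1.05-fold and 1.13-fold, so neither probe set approached 2-fold. IL1A and IL1B, whose products share a receptor, were both high in CL1-5 and differed from each other in their hairpin values, a difference between genes that was not tested.

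The IL6 window, RefSeq GRCh38.p14 chr7:22726950-22727249 on the plus strand, is printed for comparison with the chemokines because IL6 holds the same letters and had a value in the other direction. Its NF-kB letters lie at -72 to -64.
IL6: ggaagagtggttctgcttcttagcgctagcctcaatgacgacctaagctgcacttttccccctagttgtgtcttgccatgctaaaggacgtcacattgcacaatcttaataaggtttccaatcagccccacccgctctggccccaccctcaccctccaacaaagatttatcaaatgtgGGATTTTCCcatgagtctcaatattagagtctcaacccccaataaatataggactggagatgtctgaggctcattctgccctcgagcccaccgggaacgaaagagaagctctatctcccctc
Over the 8 members in the promoter table, 6 held the NF-kB letters, 2 the ISRE letters (CXCL10 and CXCL3) and 2 the AP-1 letters (CXCL8 and IL1A). These letters were present in 20.1%, 1.93% and 7.76% of all promoters. The windows of CXCL1, CXCL2 and CXCL3 were 71.9% to 82.5% identical, so their NF-kB letters are not separate occurrences. The IL1B window held none of the NF-kB, ISRE and AP-1 letters, which says only that these letters are not in it.

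**Figure D3:**
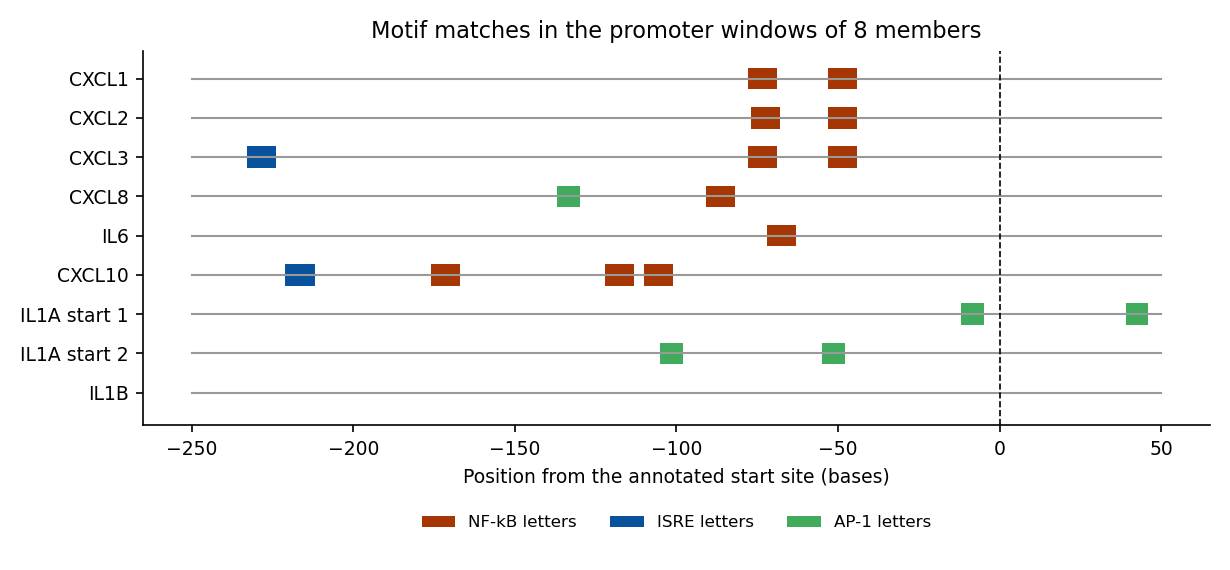
Positions of the NF-kB, ISRE and AP-1 letters in windows from 250 bases before to 50 after the start site of the 8 members in the promoter table, IL1A with both of its start sites; the horizontal axis is in bases from the start. NF-kB letters sit between -78 and -45 in CXCL1, CXCL2 and CXCL3.

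Counted together, the CL1-5 pair had 9 measured members, of which 1 was higher (CCL5) and 2 lower (CXCL1 and CXCL2) with the hairpin, with a median log2 ratio of 0.03. Over all genes 0.398% were higher and 0.421% lower, with a median of 0.02. For scale, log2 ratios of different probe sets of the same gene had an SD of 0.289 in the CL1-0 pair and 0.175 in the CL1-5 pair, which is not replicate error. The members' shares rest on 1 to 2 genes each.

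**Figure D4:**
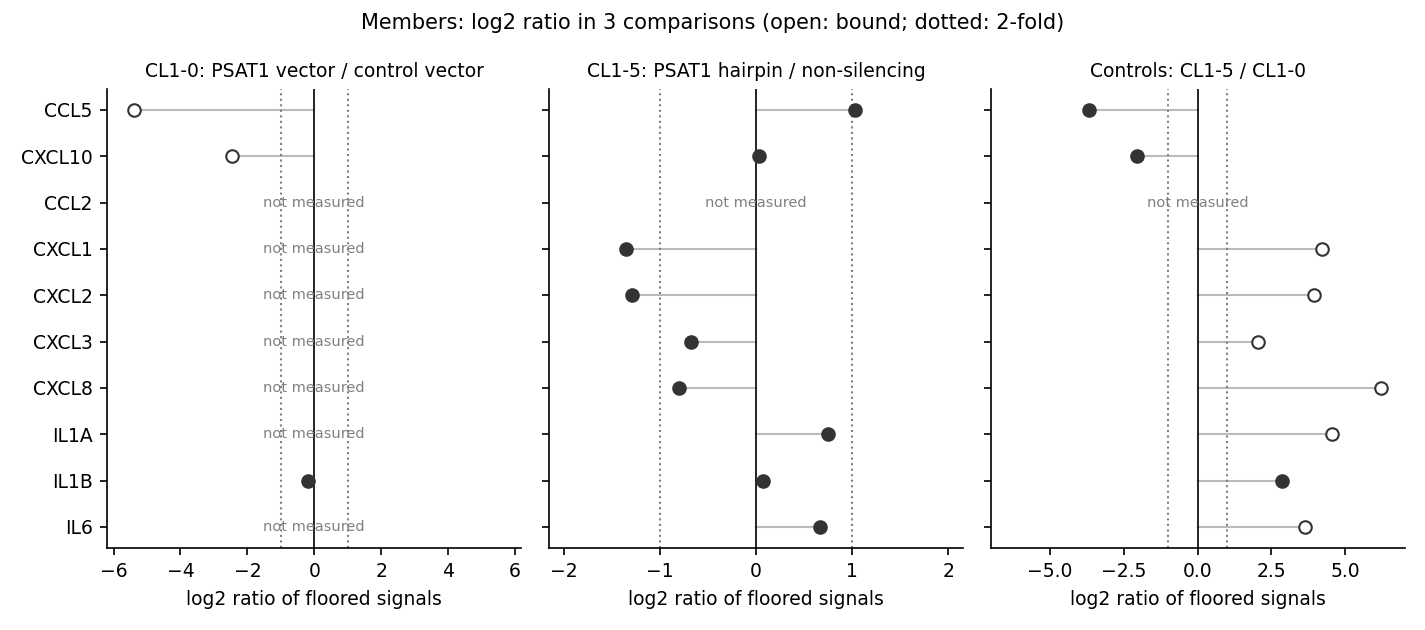
Log2 ratio of floored signals for the 10 genes in CL1-0 with PSAT1 against vector (left), CL1-5 with hairpin against non-silencing (middle) and the control arrays of CL1-5 against CL1-0 (right); filled points are measured on both arrays, open points are bounds, and horizontal scales differ. The 4 neutrophil chemokines lie left of 0 in the middle panel and right of it in the right panel, and CCL5 does the opposite.

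Between the control arrays of the lines, 7 members were higher in CL1-5 and 2 lower, out of 9 measured, with a median log2 ratio of 3.62. Over all 13720 measured genes 5.25% were higher and 24.8% lower, with a median of -0.49. CXCL1, CXCL2, CXCL3, CXCL8, IL1A and IL6 were measured here only through the CL1-5 array, so they could not come out lower. The members were also chosen with earlier results of these data known. This comparison shares 1 array with each of the pairs above, and levels depend on how the lines were scaled. Quantile normalization moved the median of all genes by 0.49 and centring by 0.58, and the share of higher among called genes from 17.5% to 51.6% and 54.6%. Every member's direction and 2-fold call was kept under both.

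CXCL8 rose from 9.27 in CL1-0 with the control vector to 3645 in CL1-5 with the non-silencing hairpin, at least 74.4-fold. Its second probe set gave at least 30.0-fold. The suffixes of both CXCL8 probe sets, and of the IL1A probe set above the floor, also mark probes that can bind several transcripts. IL1A was at least 23.5-fold higher, CXCL1 at least 18.6-fold, CXCL2 at least 15.4-fold, IL6 at least 12.3-fold and CXCL3 at least 4.12-fold, the last at 1.99-fold with the floor at the 65th percentile. Averaging probe sets, of which some stayed under the floor, gave 2.49-fold for CXCL2 and 4.85-fold for IL1A. IL1B rose 7.17-fold (11.0-fold after centring), and its second probe set at least 11.4-fold.

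CCL5 and CXCL10 ran the other way. CCL5 was 12.9-fold lower in CL1-5 (13.7-fold and 10.4-fold by its other probe sets, and 8.31-fold after quantile normalization), and CXCL10 was 4.19-fold lower (2.73-fold after centring). CL1-0 with its control vector thus had CCL5 and CXCL10 high and the neutrophil chemokines, IL1A and IL6 under the floor, while CL1-5 had both sets above it.

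The genes nearest to the members high in CL1-5 can be named by the same distance. CXCL1 and CXCL2 were each other's nearest gene (0.24), followed for CXCL1 by PTX3 (0.30), a secreted pattern recognition protein, at 6.91, 6.78, 1034 and 457. CXCL8 was nearest to PLAU (0.27), urokinase, at 40.9, 36.5, 3948 and 2621. CXCL3 was nearest to EXPH5 (0.16), IL1A to MGLL (0.09) and SNAI2 (0.16), IL1B to KRT18 (0.05) and IL6 to GPRC5A (0.17). KRT18, a keratin of simple epithelium, read 757, 635, 5308 and 5657. Distances rest on 4 arrays, 2 lines among them, so most of each pattern is the difference between lines.

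Of 23 named chemokine genes outside the members, 4 were measured in CL1-0 and 7 in CL1-5, and 0 changed 2-fold in any of the 3 comparisons. Between lines 6 of 7 had values above those of CL1-0, with a median log2 ratio of 0.53 against -0.49 over all genes. CCL20, an attractant of CCR6-bearing cells that is also an NF-kB target, read 19.0, 13.1, 70.6 and 49.3, and CCL28, a mucosal chemokine, read 110, 68.9, 188 and 224. Between the lines CCL28 and XCL1 passed 2-fold under both other scalings, with log2 ratios of 1.20 and 1.12 after quantile normalization, and CCL22 did after centring (1.07). Of 26 named other interleukins and cytokines, 11 were measured in each of the manipulated pairs with 0 changes. Between lines 3 of 13 were higher in CL1-5 and 0 lower, against 5.25% and 24.8% of all genes. These were LIF, an IL-6 family cytokine, at 624 in CL1-5 (6.24-fold), CSF1, a macrophage growth factor, at 3.82-fold, and LTB, lymphotoxin beta, at 2.75-fold. Averaging probe sets took CSF1 and LTB under 2-fold (log2 ratios of 0.57 and 0.83).

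Of 12 named receptor genes for these ligands, 5 were measured in CL1-0 and 7 in CL1-5. IL6R, the IL-6 binding chain, read 78.0, 201, 134 and 226, a rise of 2.58-fold with PSAT1 in CL1-0, though 1.69-fold with the hairpin in CL1-5. That rise was a log2 ratio of 0.53 when probe sets were averaged. IL6ST, the shared signal-transducing chain, read 1948, 1526, 4323 and 3305, higher in CL1-5 than in CL1-0 by 2.22-fold and under 2-fold in both manipulated pairs. IL1R1, the IL-1 receptor, read 64.1, 122, 127 and 161, none of these pairs reaching 2-fold at the scaling used, while IL1R1 and IL6R passed it between lines after quantile normalization (log2 ratios of 1.38 and 1.17). CXCR2 was not above the floor on any array.

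Among 19 named genes of IL-1 and IL-6 signalling and of IL-1 processing, 0 changed in the manipulated pairs, where 14 and 15 were measured. Between lines 3 of 15 were higher in CL1-5 and 3 lower, against 5.25% and 24.8% of all genes. The higher ones were MYD88, the IL-1 receptor adaptor, at 553 against 95.6 (5.79-fold), GSDMD, the pore former through which IL-1 beta leaves the cell, at 515 against 93.7 (5.50-fold), and CAPN2, a calpain subunit, at 3.08-fold. TAB2, an adaptor of the kinase TAK1, was 3.56-fold lower. STAT3 read 873, 702, 881 and 600, and IRAK2 read 643, 695, 834 and 503, 1.47-fold and 1.66-fold down in value with the hairpin.

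Of 14 NF-kB subunits and inhibitors, all were measured in each comparison, and 1 changed with each manipulation, the same gene. NFKBIZ, the nuclear inhibitor-like protein IkB-zeta, which promotes transcription of a subset of NF-kB targets, read 327, 115, 1079 and 521. It fell 2.84-fold with PSAT1 in CL1-0 and 2.07-fold with the hairpin in CL1-5. RELA, the main activating subunit, read 685, 629, 599 and 625, within 2-fold throughout. NFKBIA, the feedback inhibitor, read 1629, 1234, 2308 and 1581, and TNFAIP3, a deubiquitinase that shuts the pathway down, read 244, 131, 435 and 602. Between lines NFKBIZ was 3.30-fold higher in CL1-5, while the kinases IKBKB and CHUK were 3.42-fold and 3.39-fold lower and REL 2.21-fold lower, REL under 2-fold at both other scalings (log2 ratios of -0.50 and -0.53). This made 1 of 14 higher and 3 lower, with a median log2 ratio of -0.19. Among all measured genes 5.25% were higher and 24.8% lower, with a median of -0.49.

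Of 12 AP-1 and C/EBP factors, 2 fell with PSAT1 in CL1-0: FOS from 127 to 61.7 (2.05-fold) and JUN from 498 to 237 (2.10-fold), both losing the 2-fold call with the added offset (log2 ratios of -0.76 and -0.98). FOS was at -0.32 with the floor at the 65th percentile, and JUN at -0.52 with the mean over probe sets. With the hairpin in CL1-5 0 of 12 changed, FOS reading 96.6 and 36.6, bounded at 1.97-fold and past 2-fold in log2 ratio (-1.20) after quantile normalization. Between lines 3 were higher in CL1-5 and 5 lower. FOSL1, an AP-1 subunit, was 12.7-fold higher (884 against 69.8) and JUN 8.59-fold higher (4281 against 498), and ATF3 was 6.21-fold lower.

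Of 17 named other NF-kB targets, 0 changed in either manipulated pair, where 11 and 13 were measured, and all 11 in CL1-0 had values on the lower side, with a median of -0.14. ICAM1, an adhesion molecule for leukocytes, read 50.8, 41.8, 209 and 129. Between lines 5 of 13 were higher in CL1-5 and 2 lower, against 5.25% and 24.8% of all genes. Among the higher ones were PLAU at least 80.6-fold, IER3 23.6-fold and BCL2A1 at least 9.45-fold. Factors that bind AU-rich elements and set the decay of chemokine and cytokine mRNAs numbered 10, all measured. Of these 0 changed with PSAT1 or the hairpin. In CL1-5 4 were lower than in CL1-0, ZFP36L2 by 4.77-fold, where 24.8% of all genes were lower. The other 3, RC3H2, KHSRP and TIA1, were under 2-fold at both other scalings.

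**Figure D5:**
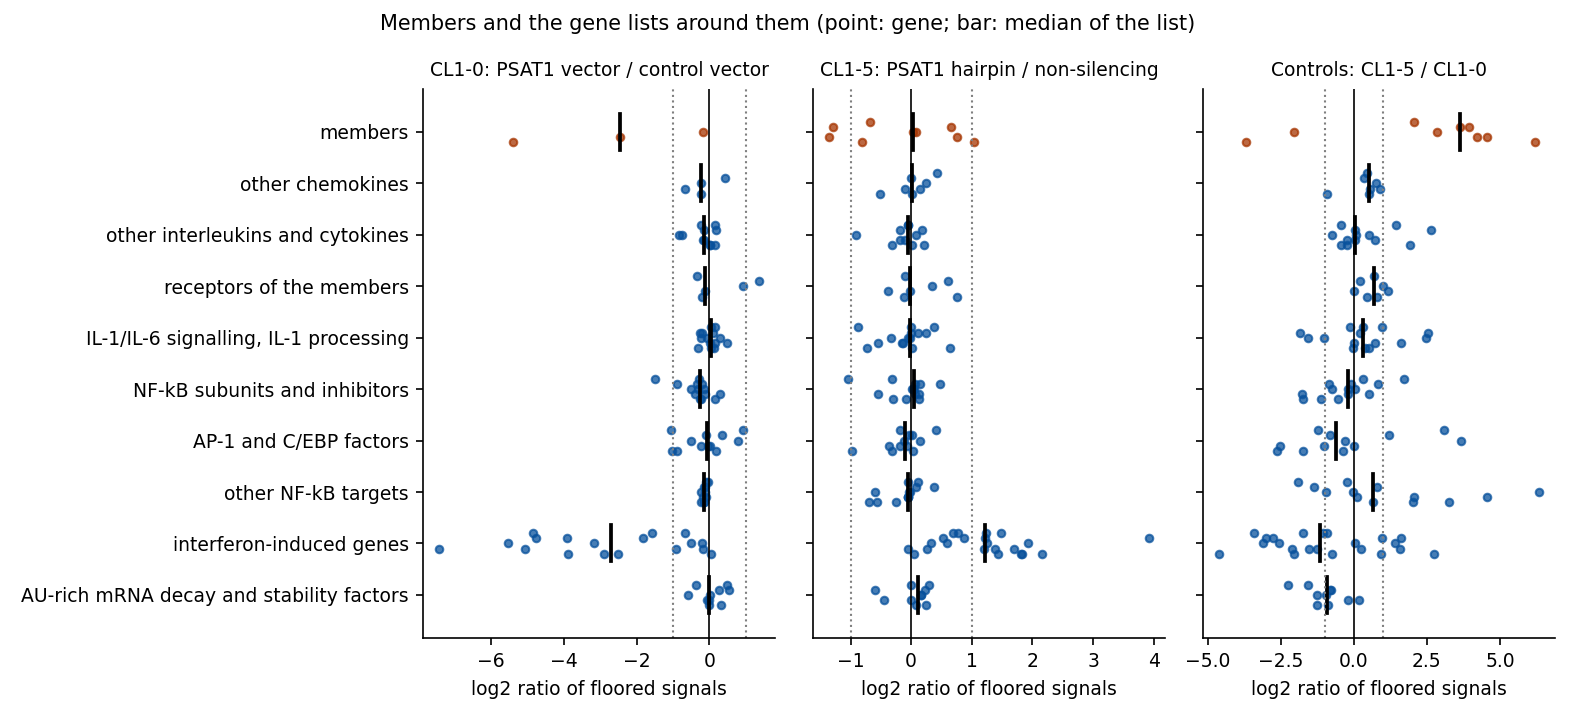
Log2 ratio of each measured gene of the members (brown) and of 9 gene lists (blue) in the 3 comparisons, with a black bar at the median of each list and dotted lines at 2-fold; horizontal scales differ. The interferon-induced genes lie to the left in the CL1-0 pair (median -2.70) and to the right in the CL1-5 pair (median 1.22), and the medians of the other blue lists lie between -0.27 and 0.11 in both, with single genes past 2-fold such as NFKBIZ, FOS, JUN and IL6R.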

How the data were processed

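Total RNA (6 ug, per the labels) from each of 4 cultures was labelled and read on 1 array each. The authors deposited 1 linear intensity per probe set and array, made with MAS5, per the submitters' processing notes; its version, scaling and detection calls are not given in the sources used here. All 54675 probe sets, 62 of them controls, were read. The platform annotation named 1 gene for 41097, several for 1801 (not used) and none for 11777, and 41043 symbols were matched to a reference gene table. Y-linked and X-inactivation genes (59 probe sets) were left out.

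Signals were floored at the pooled 50th percentile and log2 transformed with Python 3.11.15, numpy 2.4.6 and pandas 2.3.3. The 2-fold call was tested on simulated data, with known folds put into genes well above the floor and no noise added. Bounds at the floor were therefore not tested. The probe set of highest mean stood for a gene, and every probe set of the 10 genes is given. The text names the 10 genes, PSAT1, up to 4 genes per list and comparison with the largest ratio, and the 5 genes nearest in pattern to each member among those reaching the 75th percentile (212.6) on an array; other genes were chosen after their values were seen. The members and the 12 lists were chosen with earlier results of these data known. List genes without a named probe set were not analysed here. The number of arrays limits the precision. Alternatives were quantile normalization, median centring, floors at the 25th and 65th percentiles, the mean over probe sets, leaving out probe sets for several transcripts, an added offset of 32 and a 3-fold rule.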

Additional observations from a re-analysis of the deposited data

Results flagged for a closer look

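NFKBIZ, an NF-kB cofactor, was the 1 gene named here that changed 2-fold in both manipulated pairs and went opposite ways when each is read as the array labelled for more PSAT1 minus the other. The PSAT1 signal itself was 1.30-fold in the CL1-0 pair, under 2-fold, so the sense there rests on the label. The NFKBIZ log2 ratio was -1.51 for the array labelled PSAT1 minus its vector control in CL1-0, and 1.05 for the non-silencing minus the hairpin array in CL1-5, so that it was lower on the manipulated array of each line. FOS was also lower on the PSAT1 array of CL1-0 (-1.04), while its fall with the hairpin in CL1-5 was bounded at 1.97-fold. That hairpin log2 ratio passed 2-fold after quantile normalization (-1.20), median centring (-1.27) and with the floor at the 25th percentile (-1.40). NFKBIZ standing alone therefore depends on the processing. The difference between the lines was not tested, since each value rests on 1 array per group.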

How the results depend on the processing

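No paired analysis was possible because each group has 1 array. No member ratio of 2-fold or more reversed its direction under any alternative in which that member was measured. Changes of sign were not counted for smaller ratios. In CL1-0 the median log2 ratio of the members was -2.12 after median centring, -0.19 with the floor at the 25th percentile and -2.87 with it at the 65th, over 3, 5 and 2 measured members, and CCL5 and CXCL10 stayed lower under each. In CL1-5 with the hairpin the median with a 65th percentile floor was -0.30. The count of members lower with the hairpin was 1 without probe sets for several transcripts, which leaves out CXCL2, and 0 at 3-fold, and the count higher was 0 with the added offset and 0 at 3-fold. Between lines the median was 5.10 and 2.59 with the floor at the 25th and 65th percentiles, 2.28 with the mean over probe sets and 2.44 without probe sets for several transcripts, where 4 of 6 measured members were higher. That last setting left CXCL2, CXCL8 and IL1A unmeasured. The remaining 56 checks of member counts and medians stayed within their limits. Of the checks on single genes and lists, chosen in part after seeing the data, 1305 stayed, 198 moved beyond the spread between probe sets, 24 counts grew and 31 shrank. Signals near the floor, as for CXCL10 in CL1-5, limit what a ratio can show.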
